A study of Oryctolagus cuniculus with 3 samples.

Results

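Terminally differentiated cultures of RCE1(5T5), a line from rabbit corneal epithelium, were compared on day 10 with non-differentiated cultures of the same line on day 4. Every gene that reached 1 CPM (counts per 1e6 fragments) in either library was taken, which kept 12732 of the 20536 gene names in the tables. Each stage was 1 library, so stage, day and library cannot be told apart, and no difference has a replicate check or a test. The committed library of day 6 is given beside the others for orientation. All 3 cultures were untreated apart from a shared medium and a shared feeder layer. The medium was DMEM-F12-Ham with fetal calf serum, insulin, transferrin, hydrocortisone, triiodothyronine, cholera toxin, adenine and epidermal growth factor (EGF). The feeder was 3T3, a mouse fibroblast line whose division had been stopped with mitomycin C, and it was detached with EDTA before total RNA was extracted. The model is 1 established line on a fibroblast feeder, without stroma, nerves or tears.

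The corneal epithelium is a stratified tissue that renews itself from a basal layer. Basal cells divide and hold to a basement membrane through hemidesmosomes. As they move up they leave the cell cycle, exchange the basal keratin pair for the corneal pair KRT3 and KRT12, and build the barrier and the mucin-covered surface that meets the tear film. The corneal surface normally stays soft and does not cornify as skin does. Its cells are also known for large stores of soluble enzymes, among them aldehyde dehydrogenases and transketolase.

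Depth was 10171693 fragments for the day 4 library, 12582706 for day 6 and 10899578 for day 10. CPM here uses effective library sizes of 10896554 on day 4 and 10617407 on day 10. Where 3 CPM values stand together they are for days 4, 6 and 10 in that order. A difference is log2(CPM + 1) on day 10 minus day 4, and genes with at least a 2-fold difference on that scale are called risen or fallen. Folds of single genes are ratios of CPM, with the exact 95% Clopper-Pearson interval in brackets. These intervals cover counting error only, not differences between cultures. They treat every fragment as an independent molecule, so any PCR copies among the fragments make them too narrow. They also rest on expected counts that were rounded. A gene with 0 fragments in 1 library gets a bound set against 3 fragments, or 0.275 CPM on day 4 and 0.283 CPM on day 10. Because these are bulk cultures, fewer cells of a type and less RNA per cell cannot be told apart.

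The labels were checked first against marker genes. The corneal keratin KRT3 stood at 149.6, 954 and 2018 CPM, and its partner KRT12 at 0, 233 and 1281 fragments. PAX6, the regulator of eye identity, was at 42.2, 127 and 358 CPM. All 3 were highest in the library labelled terminally differentiated and lowest in the one labelled non-differentiated. The epithelial genes KRT5, CDH1 and EPCAM were present in each library and did not pass 2-fold (KRT5 15649.6, 23374 and 13552 CPM). TP63, of the same marker list, did not follow the order of KRT3. It was highest on day 6 and past 2-fold higher on day 10 than on day 4 (55.8, 162 and 119.7 CPM). Markers of other cell types were mostly absent: the myeloid genes TYROBP, FCER1G and ITGAM, the T cell gene CD3E, the endothelial gene PECAM1, the melanocyte genes MLANA, TYR and DCT and the goblet cell peptide TFF1 had 0 fragments in all 3 libraries. Single genes of those lists were above 0: PMEL of melanocytes was at 1.47, 7.8 and 28.5 CPM, the endothelial genes KDR at 2.39, 6.8 and 5.84 CPM, CDH5 at 1.93, 0.415 and 0.377 CPM and VWF at 5, 2 and 2 fragments, and PTPRC of leukocytes at 1.47, 1.82 and 1.51 CPM. Genes of skin keratinocytes differed. LOR had 1 fragment in each library and KRT1 was at 9.54, 4.64 and 4.71 CPM. KRT10 (21.9, 203 and 137 CPM) and FLG (1, 0 and 16 fragments) rose past 2-fold from day 4 to day 10. The goblet mucin MUC5AC had 0, 1 and 8 fragments. Fibroblast markers were present, at a summed 7831 CPM on day 4, 5053 on day 6 and 3179 on day 10, and 14 of 17 measured ones fell.

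By day 10, 2190 genes had risen and 2024 had fallen, 33.1% of those measured (17.2% higher and 15.9% lower). The median gene hardly moved (0.01 on the log2 scale), and the middle part of the genes lay between -0.68 and 0.71. The extremes on the log2(CPM + 1) scale were not even. There at least 32-fold separated the libraries for 34 genes that rose and 3 that fell, and at least 16-fold for 90 and 10. The added 1 CPM shrinks the folds of genes near 0, so more genes pass these limits by ratio of CPM. Of the measured genes, 160 had no fragment on day 4 and 50 none on day 10. Day 10 held 15 genes of at least 10 CPM that had no fragment on day 4, while the reverse held for 0 genes. By the authors' deposited TPM, which is scaled for length, the genes that rose went from 14.3% of the transcript pool to 31.9% and those that fell from 17.1% to 4.54%. Those genes were picked by their change between these same libraries, so the direction of both shifts was set by the choice. The share of the pool in the 100 most abundant genes of each library was 28.5% on day 4 and 37.8% on day 10. In TPM itself the pool is a fixed sum, so part of these shifts is the same change seen from both sides. Just outside the limit of 1 CPM lay AOC1 (0.942 CPM on day 10). DECR1, with a log2 difference of 1.0001, was just past 2-fold and EPB41L4B, with 0.9998, just short of it. On the other side BDP1 (-1.003) was just past the limit and OXCT2 (-0.9999) just short.

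**Figure D1:**
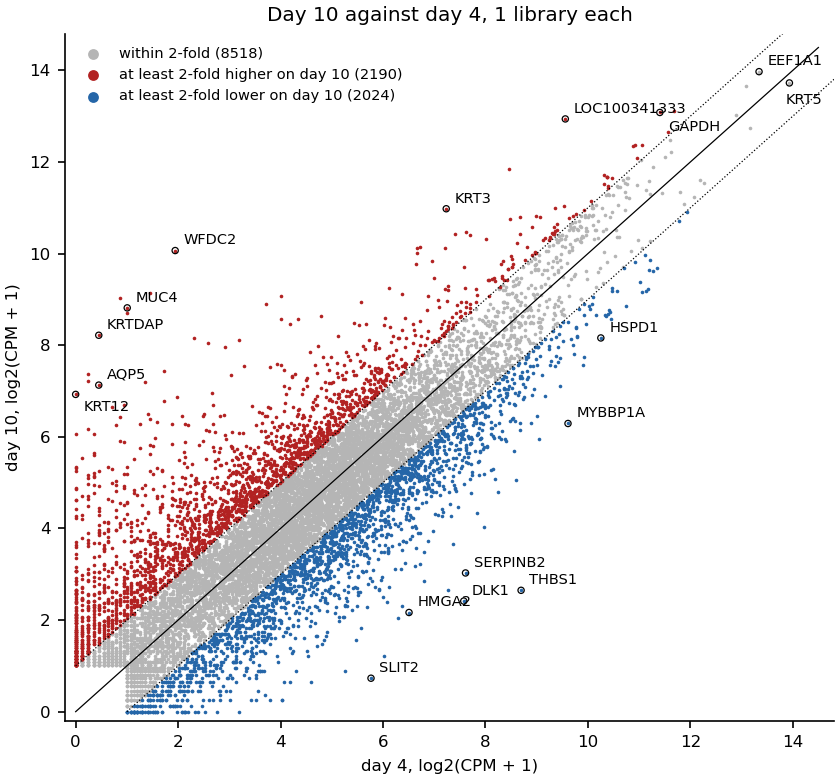
Each point is 1 of 12732 genes, with log2(CPM + 1) on day 4 across and on day 10 upward; the solid line marks equal levels and the dotted lines 2-fold. Points above the upper dotted line (2190, red) reach farther from it than those under the lower one (2024, blue), and KRT5 and EEF1A1 stay between the lines at the top right.

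The most abundant transcripts per length changed in part. On the deposited TPM scale KRT5 had rank 1 on day 4 (8929.7 TPM) and rank 9 on day 10 (5858.9 TPM), while S100A6, a small calcium-binding protein, went from 7541.9 TPM to 14297 TPM and rank 1. ANXA1 (an anti-inflammatory annexin), EEF1A1 (the elongation factor) and RPLP1 (a ribosomal stalk protein) were among the 10 highest in both libraries. LDHA and GAPDH of glycolysis, RPL27A and RLN1 entered the 10 highest on day 10. ACTB and the mitochondrially encoded COX1, COX2 and COX3 left them. In CPM, COX1 (7624, 7932 and 8321), COX2 (2388, 2554 and 2505) and COX3 (2791, 2815 and 2562) did not pass 2-fold, nor did ACTB. Rank 2 on day 10 went to LOC100341333, a gene without a symbol that lies next to RLN1 in the mOryCun1.1 assembly, at 11887.6 TPM against 1497.3 TPM on day 4. RLN1, the peptide hormone relaxin, had the same course (349, 75.2 and 3696 CPM), with the lowest value on day 6. As the 2 genes are neighbours, fragments that fit both may have been split between them, and their levels are uncertain for that reason.

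Among genes with a symbol FCGBP, KRTDAP and NCCRP1 had some of the largest rises. FCGBP, a mucin-binding protein of secretions, was at 2, 16 and 1562 fragments, 802-fold higher [222 to 6624]. KRTDAP, a secreted protein of differentiating keratinocytes, was at 4, 457 and 3150 fragments, 808-fold higher [315 to 2968]. NCCRP1, an F-box-like protein of squamous epithelia, was at 2, 174 and 1740 fragments, 893-fold higher [247 to 7379]. In each of them day 4 was near 0 fragments, so the size of the fold is poorly fixed while the level on day 10 is not. MUC4, a membrane mucin of the ocular surface, stood at 1.01, 15.8 and 449.6 CPM and WFDC2, a secreted protease inhibitor, at 2.84, 83.5 and 1071 CPM. The water channel AQP5 was at 0.367, 4.89 and 139 CPM. The phospholipase PLA2G4D (0.184, 6.05 and 71.4 CPM) and CYP4B1, a cytochrome P450 of the cornea (0.642, 2.82 and 99.3 CPM), had the same order of libraries. Day 10 was the highest library for all of these and day 4 the lowest.

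Other genes among the 20 largest rises covered various functions. NOS2, the inducible nitric oxide synthase, was at 0.0918, 4.31 and 18.7 CPM, and DMBT1, a scavenger protein of mucosal surfaces, at 0.275, 1.91 and 47.3 CPM. CES1, a carboxylesterase, rose 275-fold [48.9 to 10904], and TCN1, a vitamin B12 carrier of secretions, was at least 142-fold higher. DMKN, a protein secreted by differentiated keratinocytes, rose 181-fold [49.8 to 1502]. APOBR, a receptor for apolipoprotein B, was at 2, 15 and 372 fragments. Genes without a symbol moved as much. Chosen after their values were seen, LOC103345926 was at 0.826, 2.65 and 518 CPM, LOC100353821 at 1.01, 0.581 and 419 CPM and LOC100350165 at 1.74, 6.05 and 565 CPM. In the mOryCun1.1 assembly they lie near a cluster of A-type serpins, near CYP2A11 and near CRISP1. Of 1487 measured genes without a symbol 280 rose and 188 fell, a share of 31.5%, close to the 33.1% of all measured genes.

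The 20 largest falls among genes with a symbol included secreted proteins, membrane proteins and nuclear factors. THBS1, a matrix glycoprotein, was at 414, 35.9 and 5.27 CPM and its relative THBS2 at 152, 55.4 and 5.27 CPM. The neural cadherin CDH2 was at 15.3, 2.07 and 0.188 CPM and the guidance ligand SLIT2 at 53.4, 7.71 and 0.659 CPM. DLK1, a membrane protein of immature cells related to Notch ligands, went through 189.9, 51.3 and 4.33 CPM. Every one of these fell in order over the 3 libraries. HMGA2, a chromatin protein of proliferating and embryonic cells, was at 90.03, 11.9 and 3.48 CPM. SERPINB2, a plasminogen activator inhibitor, was at 195, 5.39 and 7.16 CPM and FOSL1, an AP-1 subunit, at 77.1, 3.81 and 3.11 CPM. These last 2 had reached their low level by day 6. Smaller genes in the group were the cytokine IL20 (64.2, 4.73 and 1.32 CPM), the growth factor FGF7 (10.5, 1.49 and 0.188 CPM), the adhesion molecule VCAM1 (11.9, 1.99 and 0.283 CPM), the hyaluronan synthase HAS2 (81.6, 11.1 and 3.96 CPM) and the pattern recognition protein PTX3 (15.7, 0.995 and 0.565 CPM). The anchoring protein gene AKAP2 (18.7, 3.73 and 0.848 CPM) and COA7, of respiratory complex assembly (12.8, 3.15 and 0.188 CPM), were among the 20 as well. Fibroblast markers fell too, in 14 of 17 cases, from a sum of 7831 to 3179 CPM, and their part in these falls was not tested.

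**Figure D2:**
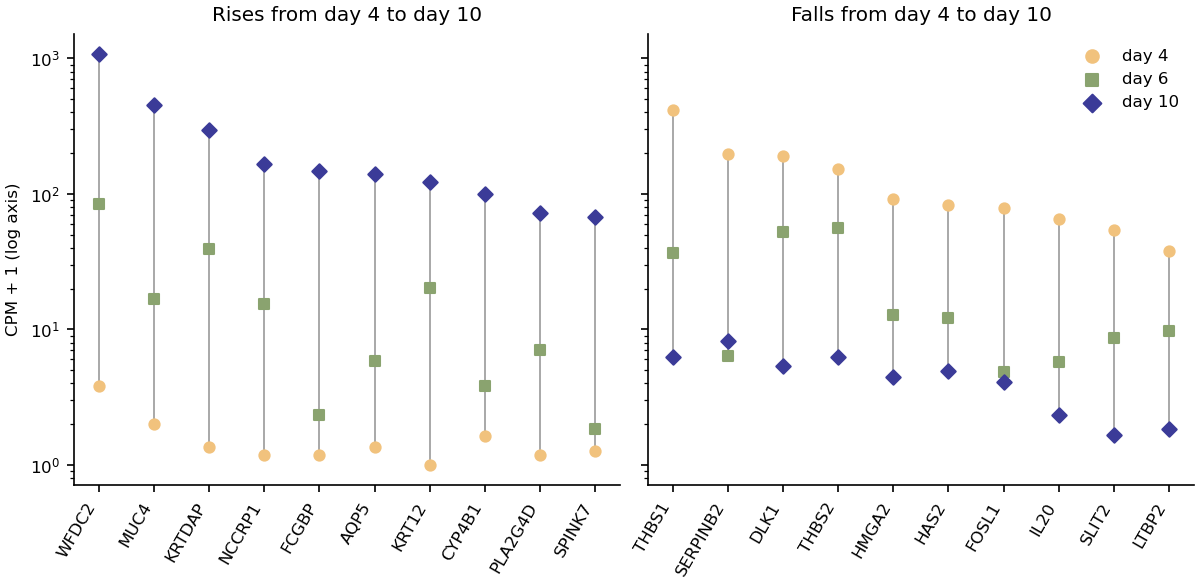
CPM + 1 on a log axis for 10 of the largest rises (left) and 10 of the largest falls (right), with day 4 as circles, day 6 as squares and day 10 as diamonds. Day 6 lies between the other libraries for all genes on the left, and on the right for all but SERPINB2, whose value on day 6 (5.39 CPM) was under that on day 10 (7.16 CPM).

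Keratins are the filament proteins of epithelia, and which ones a cell makes marks its layer. Of 24 measured keratin genes 10 rose and 3 fell (median 0.79). KRT3 rose 13.5-fold [12.8 to 14.2]. For KRT12 the bound was a level at least 438-fold higher. The mucosal keratins KRT4 (4.96, 49.9 and 266 CPM) and KRT13 (8.08, 88.2 and 278 CPM) rose with them, as did KRT78 (17.3, 82.7 and 350.2 CPM) and KRT15 (15.1, 104 and 540.2 CPM), which is often used as a limbal and basal marker. KRT7, of simple epithelia, rose 6.38-fold [5.54 to 7.38]. KRT10, the suprabasal keratin of skin, was highest on day 6 (21.9, 203 and 137 CPM), while KRT1, its usual skin partner, was low in each library (9.54, 4.64 and 4.71 CPM). The stress keratins KRT16 (438, 567 and 134 CPM) and KRT17 (187, 120.01 and 39.9 CPM) fell. KRT19 was at 1652, 2374 and 3140.5 CPM and KRT8 at 406, 483 and 466 CPM, and neither passed 2-fold.

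The cornified envelope is the protein shell under the membrane of squamous cells. Of 18 measured members of its list 12 rose and 1 fell (median 1.48). The 12 include DSTN (364, 340.1 and 938 CPM), an actin-severing protein, so the count is not of envelope genes alone. SCEL, an envelope precursor, was at 15.1, 52.2 and 379 CPM and the cystatin CSTA at 7.16, 32 and 161 CPM. The scaffold proteins EVPL and PPL rose 3.06-fold [2.75 to 3.4] and 2.12-fold [2 to 2.25]. CDSN, which holds corneocytes together, had its lowest value on day 6 (3.85, 1.24 and 41.5 CPM). The cross-linking enzyme TGM1 was the reverse, highest on day 6 (8.53, 30.6 and 7.35 CPM), and the precursor IVL was at 13.7, 20.5 and 27.3 CPM. Neither TGM1 nor IVL passed 2-fold, and filaggrin (FLG) had 16 fragments on day 10 and 1 on day 4. The desmosome list, whose proteins rivet epithelial cells together, had 2 of 12 up and 0 down, a share of rises (16.7%) near that of all measured genes, and 0 up and 1 down with the authors' deposited TPM. The 2 that rose were PERP (195, 388 and 491 CPM) and DSG1 (66, 94 and 151 CPM).

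Secreted protease inhibitors and kallikreins had the highest share of risers among the lists with 10 or more measured members, 21 of 24 with 0 down, or 87.5% against 17.2% of all measured genes (median 2.13). Kallikreins are the serine proteases that cut desmosomes during shedding, and SPINK proteins hold them in check. SPINK5 was abundant before and after (208, 246 and 1362 CPM), whereas SPINK7 was at 3, 10 and 704 fragments and SPINK9 at 0, 29 and 700 fragments. The kallikreins KLK5, KLK7 and KLK12 had 0, 4 and 0 fragments on day 4 and stood at 3.2, 5.09 and 4.99 CPM on day 10. KLK6 was higher, at 0.642, 1.16 and 38.3 CPM. Protease and inhibitor genes were therefore both up in the same library. The membrane proteases TMPRSS4 (19.4, 90.9 and 377 CPM) and TMPRSS2 (1, 43 and 186 fragments) rose too, while matriptase, ST14, was at 136, 97.4 and 85 CPM and did not pass 2-fold. CST3 and CST6, which inhibit cysteine proteases, were at 147, 304 and 1114 CPM and 0, 0.746 and 23.5 CPM. Serpins split, with 7 of 18 up and 5 down, and 5 up and 7 down with the authors' deposited TPM. SERPINB11 rose 38.2-fold [30.2 to 49.1].

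Of 10 measured S100 genes 6 rose and 0 fell. The calprotectin pair S100A8 and S100A9, antimicrobial proteins of neutrophils and stressed epithelia, and S100A12 all peaked on day 6. S100A9 was at 0.826, 286 and 85.1 CPM and S100A12 at 0.918, 175 and 103 CPM. S100A14 was at 225, 635 and 599 CPM. LGALS3, the galectin that binds mucins on the ocular surface, rose 4.89-fold [4.73 to 5.07] (355, 1058 and 1737 CPM), and LGALS1, a galectin of mesenchymal cells, fell 2.35-fold [2.17 to 2.53].

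Mucins give the corneal surface its wettable coat. Of 38 measured genes of mucins and their glycosylation 16 rose and 2 fell. Beside MUC4 the membrane mucins MUC20 (0.184, 1.33 and 21.6 CPM), MUC21 (0.367, 1.82 and 18.6 CPM) and MUC12 (0.0918, 0 and 12.8 CPM) rose. MUC1 was at 19.1, 18.6 and 37.2 CPM and did not pass 2-fold. PSCA, a small surface protein, was at 2.29, 21.2 and 173 CPM, and the antibody transporter PIGR at 0.734, 1.82 and 14.7 CPM. Of the enzymes that build O-glycans, ST6GALNAC1 rose 13.6-fold [9.72 to 19.5] and GALNT12 rose 6.61-fold [5.63 to 7.8]. AGR2, a disulfide isomerase of mucin-making cells, was at 0, 1 and 196 fragments. Of the other goblet cell genes SPDEF was at 2.02, 2.32 and 1.79 CPM and FOXA3 had 0, 1 and 2 fragments, so goblet markers other than AGR2 stayed at or near 0.

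The epithelium moves water and ions to keep the stroma clear. In the list of water and ion transport 15 of 42 rose and 4 fell, or 35.7% and 9.52%, against 17.2% and 15.9% of all measured genes. With the authors' deposited TPM the counts were 10 up and 8 down of 40. Aquaporins went in different directions: AQP5 rose as above, AQP1 fell 13-fold [9.46 to 18.3] and AQP3, the glycerol channel of basal layers, was at 826, 1191 and 1637 CPM, just under 2-fold. The carbonic anhydrases CA2 (1.74, 11.1 and 37.1 CPM), CA12 (9.82, 55.5 and 101 CPM) and CA9 (38.6, 114 and 217 CPM) rose. The sodium channel subunit SCNN1A rose 2.47-fold [2.25 to 2.71], and SLC12A2, the cotransporter that loads chloride, fell 2.89-fold [2.59 to 3.22]. The chloride channel CFTR was low (0.826, 0.912 and 4.52 CPM).

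Ceramide genes of the permeability barrier split. Of 34 members 9 rose and 5 fell, or 26.5% and 14.7%, against 17.2% and 15.9% of all measured genes. The rises included the lipid transporter ABCA12 at 1.84, 5.81 and 35.7 CPM, the elongase ELOVL4 at 5.51, 8.04 and 30.4 CPM and the ceramide synthase CERS3 at 4.68, 11.1 and 18.1 CPM. SPTLC3, a subunit of the first enzyme of the pathway, rose 4.96-fold [3.94 to 6.3]. The falls included another ceramide synthase, CERS2 (102, 67.1 and 38.9 CPM), and another elongase, ELOVL6 (32.2, 21.5 and 9.04 CPM). Sterol synthesis had 9 of 33 down and 6 up, or 27.3% and 18.2%, against 15.9% and 17.2% of all measured genes. FDPS (238, 298 and 49.9 CPM) and HMGCS1 (352, 361 and 106 CPM) fell after day 6. INSIG1 and INSIG2, which restrain the pathway, rose 2.94-fold [2.2 to 3.96] and 7.54-fold [5.36 to 10.9], and the cholesterol exporter ABCA1 rose 6.05-fold [4.76 to 7.79].

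**Figure D3:**
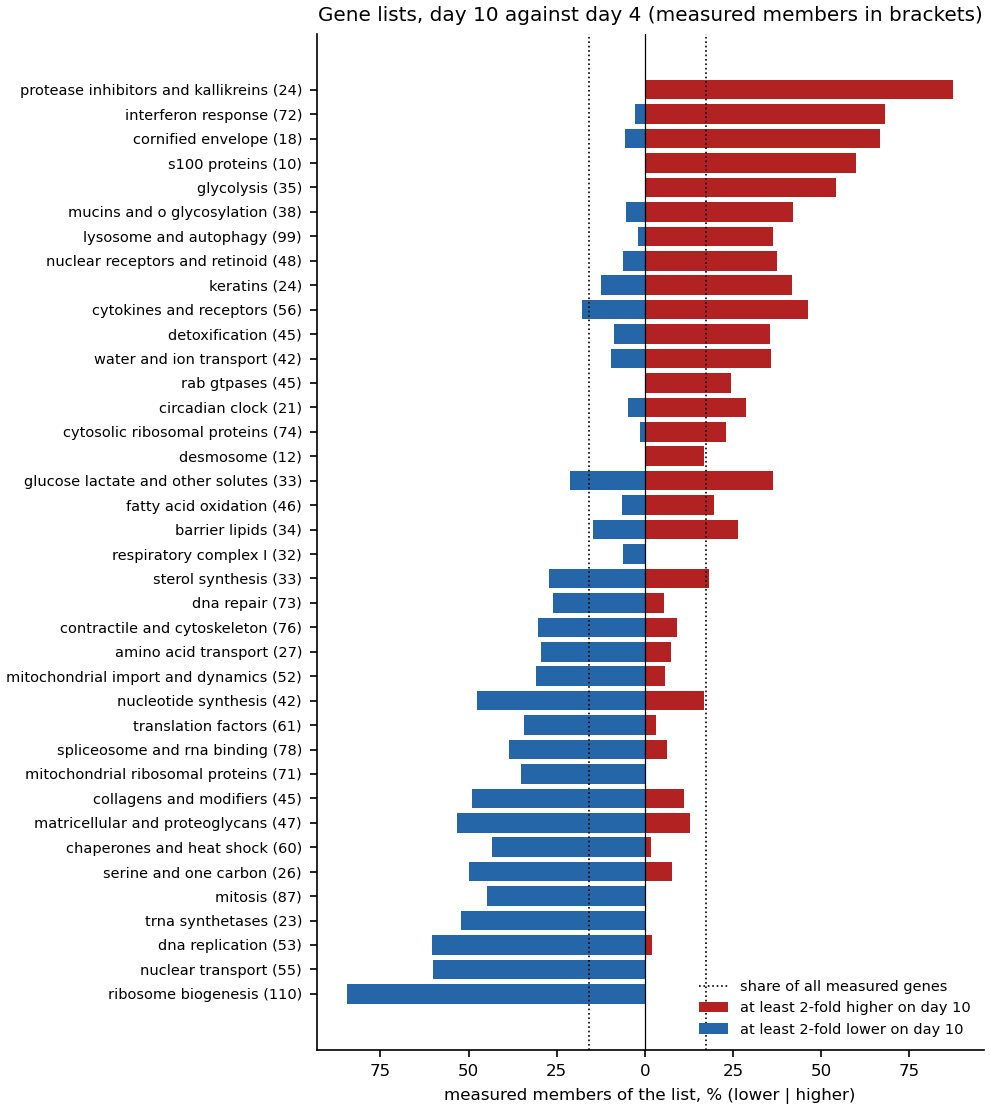
Share of the measured members of 38 gene lists that were at least 2-fold higher (red, to the right) or lower (blue, to the left) on day 10, with the number measured in brackets and dotted lines at the shares of all measured genes. Ribosome biogenesis and protease inhibitors with kallikreins lie at opposite ends, and the desmosome and respiratory complex I lists stay near or under the dotted lines.

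Ribosome assembly genes and the genes of the ribosomal proteins themselves went apart. Of 110 measured genes of ribosome assembly 93 fell and 0 rose, 84.5% against 15.9% of all measured genes (median -1.93). RRS1, which brings the 5S particle to the large subunit, was at 46.3, 9.7 and 2.54 CPM, and MYBBP1A, a nucleolar regulator, at 781, 288 and 77.3 CPM. NOP56, a core protein of snoRNP particles, was at 289.5, 105 and 32.7 CPM, and DKC1, the pseudouridine synthase, at 209, 85 and 26.6 CPM. POLR1A, the large subunit of RNA polymerase I, fell 9.59-fold [8 to 11.6]. In these genes most of the fall, in CPM, was already present on day 6. Members that moved little included RSL24D1 (82.9, 51.8 and 77.3 CPM) and UTP11 (70.3, 75.1 and 68.1 CPM).

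The 74 cytosolic ribosomal protein genes had 17 members up and 1 down, with a median of 0.83 that lies under the 2-fold limit. Their summed level was 73461, 121528 and 129338 CPM. RPS21 rose 2.81-fold [2.7 to 2.92] and RPS7 rose 2.39-fold [2.33 to 2.46], while RPLP0 was at 2460.2, 4250.4 and 3772 CPM and did not pass. The 1 fall was RPL7L1, a nucleolar relative of RPL7 and not a core ribosomal protein. The count of 17 depended on the scaling: it was 8 without TMM and 1 with the deposited TPM, although the median stayed above that of all genes by 0.81 and 0.77. Many ribosomal protein genes have processed copies in the genome, which could share their fragments. Mitochondrial ribosomal protein genes fell in 25 of 71 cases and rose in 0 (median -0.66). MRPS27 was at 44.9, 16.3 and 6.69 CPM and MRPL18 at 56.5, 21.6 and 15 CPM.

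Genes of tRNA charging and of translation had more falls than rises. Of 23 genes of tRNA charging 12 fell and 0 rose, among them FARSB (156, 71.8 and 26.7 CPM) and VARS (176, 119.6 and 51.9 CPM). QARS was the highest against the trend, at 216, 315 and 345 CPM, without passing 2-fold. Translation factors fell in 21 of 61 and rose in 2. Their summed level did not fall (33016, 35819 and 36637 CPM), and the abundant elongation factors EEF1A1 and EEF1G were 1.55-fold [1.54 to 1.56] and 1.84-fold [1.81 to 1.86] higher, short of the limit. The initiation scaffold EIF4G1 was at 1141, 647 and 403 CPM and EIF3B at 652, 386 and 185 CPM, whereas EIF3E (482, 629 and 1007 CPM) and the interferon-induced kinase EIF2AK2 (3.58, 16.3 and 19.5 CPM) were the 2 that rose. Amino acid transporters fell in 8 of 27 and rose in 2. SLC7A5 (108, 128 and 22.5 CPM), its partner SLC3A2 (252, 157 and 101 CPM) and the glutamine carrier SLC1A5 (67.3, 37.5 and 10.5 CPM) were lower, and SLC6A14, a broad transporter of mucosal surfaces, was higher (7.34, 6.88 and 68.2 CPM).

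Nuclear transport genes, which include importins, exportins and nucleoporins, fell in 33 of 55 and rose in 0 (median -1.12). The Ran cycle genes RCC1 (65.2, 40.4 and 13.1 CPM), RANGAP1 (183, 105 and 38.7 CPM) and RANBP1 (243, 137 and 56.2 CPM) fell, as did the scaffold nucleoporins NUP188 (308, 185 and 62.4 CPM) and NUP107 (235, 97.7 and 61.2 CPM). The importin KPNA2, abundant in dividing cells, fell 3.32-fold [3.17 to 3.49]. IPO7 was at 516, 379 and 556 CPM and did not pass. Splicing genes fell in 30 of 78 and rose in 5. SRSF3 (289.9, 165 and 76.1 CPM) and SRSF2 (33.8, 19.7 and 6.12 CPM), which guide exon choice, fell, and the kinase CLK1, which phosphorylates such proteins, rose 4.36-fold [3.95 to 4.81] (46.2, 89.98 and 201 CPM). ESRP1, the splicing factor of epithelial isoforms, rose 2.04-fold [1.88 to 2.21].

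**Figure D4:**
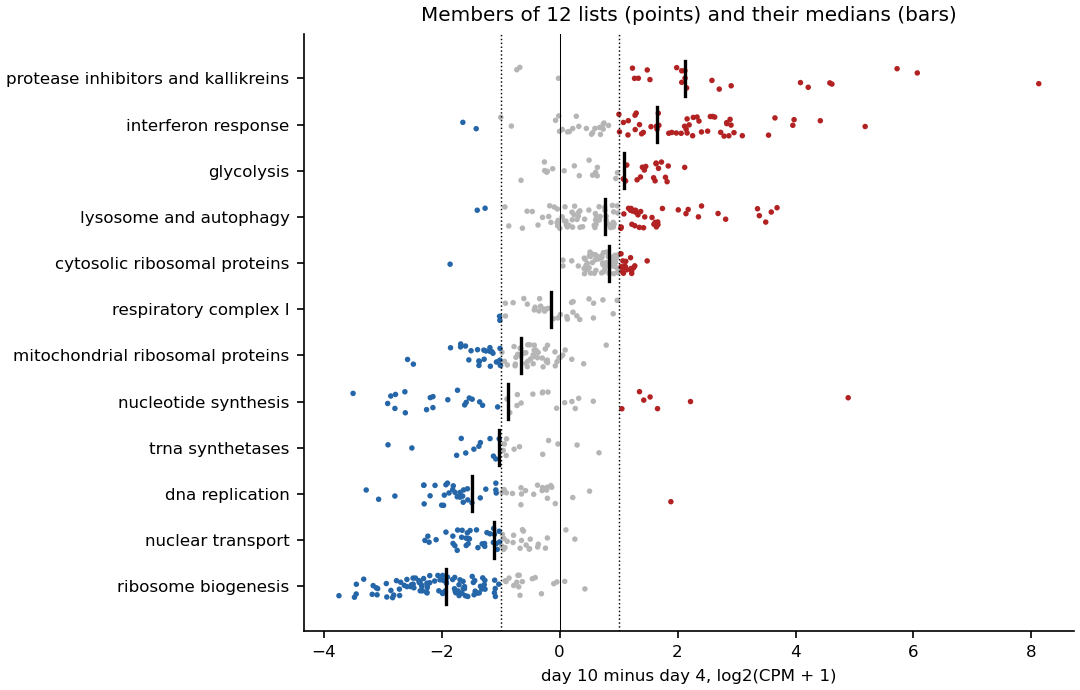
Each point is a measured member of 1 of 12 lists, placed by its day 10 minus day 4 difference of log2(CPM + 1), with a bar at the median and dotted lines at 2-fold. The points of ribosome biogenesis lie nearly all left of 0 and those of cytosolic ribosomal proteins nearly all right of it, within a narrow band around 0.83.

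DNA replication genes fell in 32 of 53 members and rose in 1 (median -1.48). CDC6, which loads the helicase, was at 34.2, 12.4 and 3.2 CPM, the helicase subunit MCM4 at 208, 110.4 and 41.6 CPM and the sliding clamp PCNA at 381, 317 and 123 CPM. The 1 rise was ORC6, of the origin recognition complex, at 22.9, 12 and 87.2 CPM. RPA1, which coats single-stranded DNA, was at 133, 144 and 120.1 CPM and did not pass. Nucleotide synthesis fell in 20 of 42 and rose in 7. The de novo enzymes PFAS (104, 34.5 and 8.29 CPM), CAD (252, 115 and 35.5 CPM) and CTPS1 (140.4, 67.2 and 18.5 CPM) fell by more than the ribonucleotide reductase subunit RRM2 (207, 122 and 32.8 CPM). The rises lay elsewhere: NT5E, the surface enzyme that makes adenosine, was at 2.94, 10.9 and 116 CPM, and the adenylate kinases AK1, AK3 and AK4 rose 4.9-fold [4.13 to 5.84], 2.7-fold [2.56 to 2.85] and 3.33-fold [2.75 to 4.07]. One-carbon genes fell in 13 of 26, with MTHFD1 at 277, 132 and 37.7 CPM, while PSAT1 of serine synthesis rose 5.62-fold [5.3 to 5.95].

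Mitosis genes fell in 39 of 87 and rose in 0. MYBL2, a driver of the late cell cycle, was at 67.9, 40.6 and 10.1 CPM, AURKB at 62.1, 58.6 and 13.5 CPM and PLK1 at 132, 102 and 38.5 CPM. These genes were lower but not off, and TOP2A, at 342, 247 and 204 CPM, did not pass 2-fold. MKI67, the proliferation marker, was at 342, 304 and 147 CPM. Of the genes of the MYC network and of CDK control 14 rose and 14 fell among 54, against 12 and 18 with the authors' deposited TPM. MYC itself was at 90.2, 47.3 and 26.4 CPM. MXD1 (4.04, 6.14 and 32.2 CPM), MXI1 (7.71, 19.99 and 37.2 CPM) and MXD4 (18.1, 49.7 and 50.2 CPM), which compete with MYC for MAX, were each higher on day 10, and MAX was at 43.5, 37.1 and 31.8 CPM. CCNE1 (24.4, 11.8 and 2.83 CPM) and E2F1 (13.9, 10.4 and 3.48 CPM), which open S phase, fell. The retinoblastoma protein gene RB1 (34.4, 39.3 and 116 CPM) and the CDK inhibitors CDKN2B (4.5, 12.8 and 25.1 CPM) and CDKN2D (2.2, 9.54 and 22 CPM) rose, while CDKN1A was at 102, 76.7 and 167 CPM and did not pass.

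Among transcription factors of epithelia 19 of 74 rose and 12 fell. This balance depended on the scaling, with 13 up and 15 down without TMM and 8 up and 16 down with the authors' deposited TPM. PAX6 rose 8.48-fold [7.7 to 9.36], and the ETS factors ELF3 (22.8, 65.3 and 228 CPM) and EHF (21.6, 83.2 and 149 CPM) rose in order over the 3 libraries. TP63, the regulator of stratified epithelia, was highest on day 6 and had risen past 2-fold by day 10 (55.8, 162 and 119.7 CPM). HOPX (2.75, 12.8 and 30.7 CPM) and the hypoxia factor EPAS1 (1.28, 3.98 and 17.1 CPM) also rose. ZEB1 (10.7, 3.48 and 1.88 CPM), ZEB2 (18, 5.31 and 2.64 CPM), SNAI1 (7.71, 4.56 and 1.6 CPM) and TWIST2 (11.8, 3.4 and 0.848 CPM), repressors of epithelial genes in mesenchymal cells, fell. Most fibroblast markers also fell (14 of 17, median -1.72), and their part in the falls of these repressors was not tested. A further fall was that of GRHL3 (39.1, 15.7 and 16.9 CPM), which serves epidermal differentiation. KLF4 (20.1, 11.5 and 17 CPM), KLF5 (78.1, 38.8 and 75.3 CPM), OVOL1 (8.53, 4.48 and 3.96 CPM) and ZNF750 (26.1, 19.9 and 18.7 CPM) did not pass 2-fold.

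**Figure D5:**
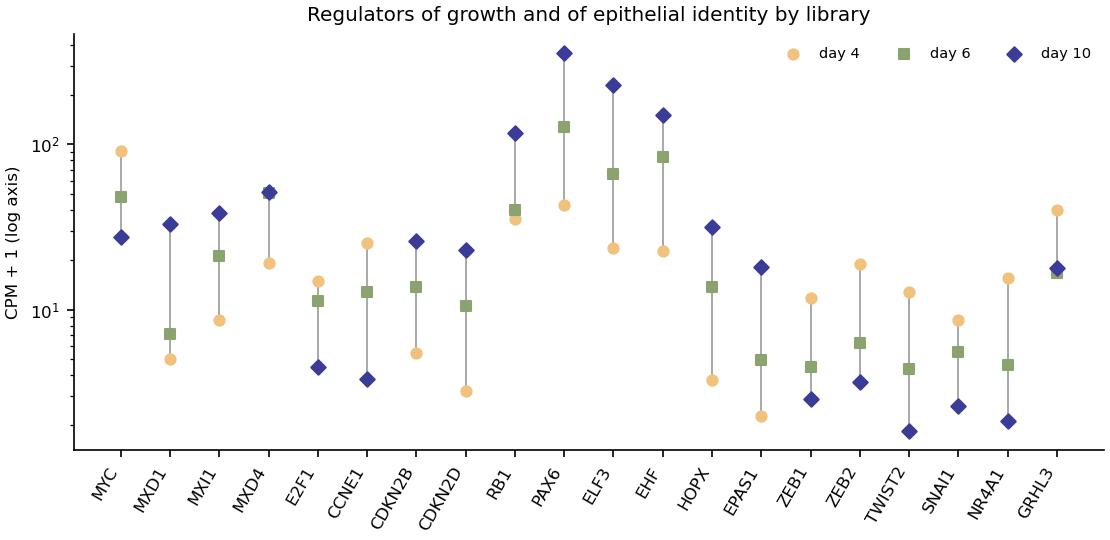
CPM + 1 on a log axis for 20 regulators of growth and of epithelial identity in the 3 libraries. MYC, E2F1 and CCNE1 step down from day 4 to day 10 while MXD1, MXI1, PAX6, ELF3 and EHF step up, and GRHL3 is lowest on day 6.

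Glycolysis genes rose in 19 of 35 members and fell in 0 (median 1.09). GPI was at 408, 1335 and 1779 CPM, TPI1 at 504, 1673 and 1808 CPM and GAPDH at 2710.1, 6724 and 8668 CPM. PFKFB3, which sets the pace of the pathway, rose 3.49-fold [3.27 to 3.74]. The glucose carrier SLC2A1 was at 481, 1151 and 1527 CPM and the lactate exporter SLC16A3 at 10.3, 66.8 and 48.9 CPM, the latter highest on day 6. PKM was at 1709, 3201 and 2419 CPM and did not pass. The respiratory chain was close to level: 2 of 32 genes of complex I fell and 0 rose, and in the other complexes 2 of 38 fell and 1 rose. CYCS, the electron carrier cytochrome c, was among them (155, 99.3 and 39.1 CPM). The list of the citrate cycle and pyruvate use had 7 of 49 up and 8 down. These shares, 14.3% and 16.3%, were near the 17.2% and 15.9% of all measured genes. With the authors' deposited TPM the counts were 5 up and 16 down of 48. In the citrate cycle IDH3A (177, 124 and 36.6 CPM) and MDH2 (315, 280.2 and 89.5 CPM) fell. The kinase PDK2, which shuts off pyruvate dehydrogenase, rose 6.03-fold [4.16 to 9.01]. Fatty acid oxidation had 9 of 46 up and 3 down, a share of rises (19.6%) near the 17.2% of all measured genes.

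Detoxification genes rose in 16 of 45 and fell in 4. ALDH1A1, an abundant soluble enzyme of the rabbit cornea, was at 191, 394 and 841 CPM. MGST1 (25.1, 61 and 103 CPM) and GSTM3 (183, 451 and 494 CPM), which conjugate glutathione, rose, and CYP1B1 fell (28.9, 1.91 and 2.35 CPM). Antioxidant genes had 7 up and 7 down of 40, or 17.5% each, near the 17.2% and 15.9% of all measured genes. With the authors' deposited TPM they had 6 up and 13 down. TXNIP, an inhibitor of thioredoxin and of glucose uptake, was at 26.6, 168 and 394 CPM and GPX1 at 44.1, 61.3 and 224 CPM. TXNRD1 (170.3, 33.3 and 27.4 CPM) and GCLC (84.8, 34.4 and 33.7 CPM), which supply reducing power and glutathione, fell. Transketolase, TKT, was highest on day 6 (1003, 2514 and 1499.9 CPM).

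Retinoid and nuclear receptor genes rose in 18 of 48 and fell in 3. RARRES1 (0.275, 0.249 and 33.7 CPM) and RARRES2 (0.459, 0.166 and 10.7 CPM), both named for their response to retinoids, were near 0 until day 6. LRAT, which esterifies retinol (0.275, 1.49 and 8.19 CPM), DHRS3, which reduces retinal (0.734, 3.48 and 9.61 CPM), CRABP2, which carries retinoic acid (2.02, 6.05 and 11.7 CPM), and CYP26A1, which degrades it (0, 0 and 70 fragments), rose. DHRS9, an oxidising dehydrogenase, fell (44, 13 and 0 fragments). TSC22D3 and ZBTB16, targets of the glucocorticoid receptor, were at 13.1, 44.5 and 59.2 CPM and 0.826, 9.29 and 15.4 CPM, with hydrocortisone in the medium of all 3 cultures. Clock genes rose in 6 of 21 and fell in 1, with NR1D2 at 7.98, 14.7 and 40.5 CPM and ARNTL at 21.3, 17.1 and 7.44 CPM. The hour of harvest is not given in the sources used here.

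Lysosome and autophagy genes rose in 36 of 99 and fell in 2 (median 0.76). The cathepsins CTSH (5.41, 18.7 and 76.2 CPM) and CTSS (0.551, 1.41 and 16.5 CPM) and the receptor NBR1 (64.2, 130.4 and 345 CPM) were all highest on day 10. The mitophagy receptors BNIP3 (46.8, 301 and 488 CPM) and BNIP3L (84.8, 361 and 388 CPM) rose as well. CTSB (148, 176 and 253 CPM) and CTSD (199, 226 and 222 CPM), the abundant cathepsins, did not pass. CD68, a lysosomal protein best known from macrophages, was at 5.6, 25 and 68 CPM, with the macrophage genes TYROBP, FCER1G and ITGAM at 0 fragments. Of 45 RAB genes of vesicle traffic 11 rose and 0 fell, RAB27B among the rises (3.4, 5.64 and 33.2 CPM). With the authors' deposited TPM the RAB counts were 6 up and 6 down of 47. Chaperones went the other way, 26 of 60 down and 1 up. HSPD1 (1219, 489 and 285 CPM) and the chaperonin subunits CCT2 (1357, 788 and 433 CPM) and CCT5 (879.8, 780.3 and 287 CPM) fell, and HSPA8 was at 3566, 3098 and 2616 CPM.

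Genes of the interferon response rose in 49 of 72 members and fell in 2 (median 1.65). IRF7, the factor that drives interferon genes, was at 12.2, 100.2 and 478 CPM, and IRF1 at 12.6, 55.1 and 99.6 CPM. PARP9 (1.93, 32.1 and 61.7 CPM) and PARP14 (2.66, 28.1 and 56.6 CPM) rose in order over the libraries. The sensor DDX58 (17, 214 and 134 CPM), ISG15 (2.66, 44.5 and 24.3 CPM) and the chemokine CXCL10 (0.459, 18.7 and 11.5 CPM) peaked on day 6. In the proteasome list 3 of 47 rose and 9 fell, or 6.38% and 19.1%, against 17.2% and 15.9% of all measured genes. With the authors' deposited TPM the counts were 2 up and 18 down of 47. The rises were PSMB9, PSME1 and PSME2, the first an interferon-induced catalytic subunit and the other two the activator that goes with it. PSMB9 was at 3.58, 13 and 19.5 CPM, while PSMB10, another such subunit, fell (10.9, 9.45 and 2.83 CPM).

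Cytokines and their receptors had 26 of 56 up and 10 down. Rises were led by IL32 (0, 37 and 396 fragments), the defensin DEFB1 (2.02, 42.2 and 78.6 CPM), the death ligand TNFSF10 (0.275, 11.4 and 29.7 CPM) and the receptor TNFRSF1B (1.84, 8.96 and 54.6 CPM). The chemokines CCL5, CCL2 and CXCL12 were low on day 4, at 3.4, 1.65 and 2.02 CPM, and had 0 fragments on day 10. IL1A fell 2.28-fold [2.08 to 2.51], and IL1RN, its natural antagonist, was at 130.2, 168 and 95.3 CPM. CXCL8 fell 3.08-fold [2.04 to 4.77].

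EGF receptor signalling acts through secreted ligands, their receptors and feedback genes that damp the kinase ERK. Of 59 members 15 fell and 5 rose, or 25.4% and 8.47%, against 15.9% and 17.2% of all measured genes. The ligands AREG (80.6, 12.9 and 7.63 CPM), EREG (21.1, 2.07 and 2.07 CPM), HBEGF (25.3, 5.06 and 6.4 CPM) and NRG1 (164, 68.4 and 38.3 CPM) were lower, as were the phosphatases DUSP5 (24.8, 2.74 and 2.17 CPM) and DUSP6 (32.2, 29.4 and 11.7 CPM). The receptors EGFR (203, 181 and 193 CPM) and ERBB2 (55.2, 88 and 109.7 CPM) did not pass 2-fold, and ERBB3 rose (17.6, 64.5 and 161 CPM). EGF was part of the medium in all 3 cultures. In the Hippo list 9 of 42 fell and 2 rose, or 21.4% and 4.76%, against 15.9% and 17.2% of all measured genes. CYR61, a YAP target, was at 74.7, 4.98 and 7.72 CPM, but CTGF, another, recovered after day 6 (105, 17.1 and 65.4 CPM).

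In the TGF-beta and BMP list 7 of 47 rose and 11 fell, or 14.9% and 23.4%, against 17.2% and 15.9% of all measured genes. TGFBI, a secreted protein abundant in the cornea, rose 8.86-fold [8.21 to 9.57] (68.1, 473 and 603 CPM). The ligand INHBA (41.8, 11 and 5.46 CPM), the antagonists FST (81.5, 15.5 and 10.5 CPM) and GREM1 (22.9, 7.3 and 2.64 CPM) and the latent binding protein LTBP2 (37.1, 8.71 and 0.848 CPM) fell. WNT genes had 11 of 52 up and 5 down, or 21.2% and 9.62%, against 17.2% and 15.9% of all measured genes. WNT11 was at 0.918, 0.415 and 58.3 CPM, and LGR4, a receptor that strengthens WNT signals, at 16.8, 43.9 and 72.9 CPM. Notch genes had 7 of 27 up and 2 down, and 3 up and 4 down of 25 with the authors' deposited TPM. The ligand DLL1 (13, 45.8 and 66.9 CPM) and the receptor NOTCH3 (154, 268 and 365 CPM) rose, and the ligand JAG1 was at 265, 147 and 159 CPM.

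Matrix genes fell alongside the fibroblast markers, and these lists share genes, COL6A1 and COL6A2 among them. Of 45 collagen and collagen-modifying genes 22 fell and 5 rose, and of 47 matricellular and proteoglycan genes 25 fell and 6 rose. COL1A2 was at 679, 389 and 198 CPM, COL6A2 at 282, 155 and 38.1 CPM, TNC at 698, 421 and 137 CPM and BGN at 233, 85.5 and 43.4 CPM. The fibroblast markers VIM (1527, 1203 and 581 CPM), COL1A1 (542, 312 and 265 CPM) and FN1 (838, 446 and 254 CPM) followed the same order, and PDGFRA (15.1, 4.81 and 2.83 CPM) and PDGFRB (28.1, 15.3 and 4.62 CPM) were low. Of the 17 measured markers THY1 alone rose (19.6, 16.8 and 76.9 CPM), POSTN (38.8, 19.6 and 30.5 CPM) and ACTA2 did not pass, and LUM had 0 fragments in all 3 libraries. The feeder was a mouse line, its part in the falls of matrix genes was not tested, and fragments of mouse and rabbit origin cannot be told apart in these counts. Other members rose: IGFBP5 was at 12.8, 24.9 and 182 CPM, IGFBP2 at 4.31, 30.7 and 55.6 CPM, COL7A1, the anchoring fibril collagen, at 53.1, 90.6 and 172 CPM and the syndecan SDC1 at 225, 221 and 489 CPM.

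Adhesion to the basement membrane changed in part. Of 48 genes 14 fell and 6 rose, or 29.2% and 12.5%, against 15.9% and 17.2% of all measured genes. With the authors' deposited TPM the counts were 10 down and 4 up of 39. COL4A1 (371, 115 and 84.6 CPM), NID1 (86.4, 14.7 and 12 CPM), HSPG2 (327, 149.7 and 134 CPM) and the fibronectin receptor chain ITGA5 (213, 53.7 and 36.8 CPM) fell. The hemidesmosome collagen COL17A1 was at 2332, 2411 and 3062 CPM and did not pass, whereas PLEC, which links hemidesmosomes to keratin, fell 4.12-fold [3.73 to 4.55]. ITGB6 (17.3, 20.7 and 54.5 CPM) and ITGB8 (14.3, 19.99 and 69.8 CPM), partners of the alpha v chain in activating TGF-beta, rose. The matrix protease list had 9 of 47 up and 12 down, or 19.1% and 25.5%, against 17.2% and 15.9% of all measured genes. The plasminogen activator PLAT rose (52.2, 90.5 and 275 CPM) and the urokinase receptor PLAUR fell (125, 16.8 and 14.4 CPM), as did MMP9 (17, 11 and 3.11 CPM).

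Junction genes went both ways, 10 up and 8 down of 46 (9 up and 11 down with the authors' deposited TPM). The shares of 21.7% and 17.4% were near the 17.2% and 15.9% of all measured genes. Cingulin, CGN, of tight junctions was at 3.3, 19.7 and 42 CPM and NECTIN4 at 15.7, 45.4 and 137 CPM. The gap junction gene GJA1 rose (43.2, 94.3 and 161 CPM), and GJB5 (30.9, 17.4 and 13.9 CPM) fell. The cadherins CDH2 and CDH11 (159, 61.7 and 18.2 CPM) fell, and E-cadherin, CDH1, was at 291, 209 and 155 CPM, short of 2-fold. Contractile and cytoskeletal genes fell in 23 of 76 and rose in 7. TAGLN, a marker of contractile cells and in the fibroblast list too, was at 54.6, 10.04 and 12.1 CPM, and the actin-severing proteins GSN (392, 949.9 and 1209 CPM) and DSTN (364, 340.1 and 938 CPM) rose. TUBB (2479, 2037 and 785 CPM) and TUBA1B (1389.9, 1006 and 378 CPM) fell, but tubulins and actins have near-identical copies among which fragments may have been divided. For that reason the levels of ACTC1 (165, 23.7 and 11.6 CPM), ACTA1 (175, 23.9 and 21.3 CPM) and ACTA2 (2362, 1644 and 1246 CPM), which share much of their coding sequence with ACTB (4906, 3822 and 3000.3 CPM), are uncertain.

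Guidance genes had 10 of 59 up, or 16.9% against 17.2% of all measured genes, and 14 down, or 23.7% against 15.9%. The repellents SLIT2 and SLIT3 (110.4, 27.4 and 6.22 CPM) fell, while EPHA1 (82.1, 219.6 and 323 CPM) and EPHB6 (47.5, 239 and 250.2 CPM) of the ephrin receptors and the ligand EFNA1 (5.78, 38.1 and 31 CPM) rose. Among ubiquitin ligases 15 of 71 rose and 6 fell. The share that rose, 21.1%, was near the 17.2% of all measured genes, and with the authors' deposited TPM the counts were 8 up and 10 down of 72. KLHL24, which controls keratin turnover, was at 6.42, 33 and 87.6 CPM and SKP2, which marks the inhibitor p27 for decay, at 28.2, 21 and 4.43 CPM. Chromatin regulators fell in 15 of 89 and rose in 7, and the share that fell, 16.9%, was near the 15.9% of all measured genes. LMNA was at 951, 598 and 188 CPM, LMNB1 at 215, 193 and 75.1 CPM and the maintenance methylase DNMT1 at 183, 129 and 64.8 CPM, whereas DNMT3A (6.15, 12.7 and 16.3 CPM), TET2 (13.8, 22 and 40.8 CPM) and EZH1 (6.06, 12.9 and 20.5 CPM) rose. DNA repair genes fell in 19 of 73 and rose in 4, or 26% and 5.48%, against 15.9% and 17.2% of all measured genes. BLM was at 40.5, 20.3 and 7.35 CPM, and DDB2, of ultraviolet damage recognition, at 55.6, 109.8 and 116 CPM.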

How the data were processed

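RNA was sequenced in 3 libraries, 1 for each stage, made with an Illumina TruSeq RNA kit per the labels' protocols. The genome build, per the submitters' processing notes, was OryCun2.0. Aligner, counter and strandedness: not given in the sources used here. Genes that overlap, antisense pairs included, may thus share fragments. Per the file headers, each table gives fragment and read counts for 38696 coding sequences. The deposited counts are expected counts made by the authors, many of them fractional. The deposited raw transcript count is a coverage signal per coding length. The authors' FPKM and RPKM columns are scaled for length and depth and were not used, and the authors' TPM values, also scaled for length, sum to between 999978.8 and 999985.6 per library.

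Fragment counts were summed per gene name, rounded and divided by effective library sizes from edgeR 4.0.16 (TMM over 3 libraries). Of 5185 genes with a LOC name, 671 took a RefSeq symbol from assembly mOryCun1.1, which was used for names and neighbours only. The calls were also run on simulated counts with Poisson noise and 4-fold changes set in some genes. That simulation holds no variation between cultures, so it cannot show how reliable the 2-fold calls are. The design assumed whole counts, so rounding was added. The comparison, 66 gene lists and 47 key genes (42 measured) were chosen with earlier results of these data known, and lists share genes. Text names followed a rule: the 20 largest rises and 20 largest falls of genes with a symbol and at least 10 CPM, the key genes, the 10 highest TPM values in each of the 2 libraries, and of each list the 5 largest rises and falls and the 2 highest members. Other names in the text were chosen after their values were seen. Some genes of these lists are not reported here by name.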

Additional observations from a re-analysis of the deposited data

How the results depend on the processing

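The counts of 2190 rises and 2024 falls became 1921 and 2435 without TMM, 2170 and 2052 with DESeq2 size factors, 2195 and 2037 with TMM from 2 libraries, and 2195 and 2024 with read counts. On the scale of the deposited TPM 1382 genes rose and 2945 fell. Adding 5 in place of 1 before the log left 1324 rises and 1319 falls, and asking for 4-fold left 603 rises and 396 falls. The share of rises among changed genes was 51.97%, against 44.1% when TMM was left out (all-gene median -0.11) and 31.94% in TPM (all-gene median -0.32). With TPM the small positive medians of 8 lists (desmosome, junction, RAB, guidance, epithelial transcription factor, ubiquitin ligase, amino acid stress and fatty acid synthesis) became negative, as the median of all genes moved too. Relative to that median, guidance alone of the 8 changed sign (0.04 to -0.09). Of 34 lists with a median of at least 0.5 in size, 0 changed sign under the 10 alternatives that can alter a median (another threshold cannot). Of 510 named genes past 2-fold, 13 fell short without TMM and 70 with a pseudocount of 5, and with TPM 40 of 503 did. No paired analysis was possible because each stage has 1 library. For genes near the floor of 3 fragments, counting error limits the fold.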

Other observations

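Mitochondrial import and dynamics genes fell in 16 of 52 members between day 4 and day 10 and rose in 3. PPRC1, a coactivator of mitochondrial growth, was at 110.5, 36.2 and 10.2 CPM on days 4, 6 and 10, and the import subunit TIMM50 at 121, 79.8 and 27.3 CPM. The protease subunit CLPX rose, at 58.6, 122 and 181 CPM. Among carriers of glucose, lactate and other solutes 12 of 33 rose and 7 fell. The iron exporter SLC40A1 was at 1.19, 1.16 and 27.6 CPM and the choline transporter SLC44A2 at 27.4, 72.3 and 213 CPM, while the nucleoside carriers SLC29A1 (46.2, 33.3 and 16.1 CPM) and SLC29A2 (26.6, 14.2 and 6.59 CPM) fell.

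The amino acid stress list had 4 of 21 up and 3 down, shares of 19% and 14.3% near the 17.2% and 15.9% of all measured genes. ATF4, its central factor, was at 75.2, 61.8 and 30.5 CPM and ASNS, a target, at 60.5, 96.9 and 26.8 CPM, both lower on day 10, whereas DDIT3 (8.26, 9.29 and 26.3 CPM) and NUPR1 (2.94, 2.9 and 18.2 CPM) were higher. DDIT4, which restrains mTOR, was at 41.7, 214 and 171 CPM. Fatty acid synthesis had 3 of 28 up and 5 down (17.9%, near that of all genes), with LPIN2 at 37, 68.3 and 189 CPM and DGAT2, of triglyceride synthesis, at 7.25, 19.2 and 29.7 CPM. ACLY, which makes cytosolic acetyl-CoA, was at 319, 343 and 152 CPM.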
